A study of Homo sapiens with 34 samples.

Results

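The genes described here are the 3 sestrins SESN1, SESN2 and SESN3 and 5 metabolic genes known as p53 targets, FDXR, DDIT4, SAT1, DRAM1 and GLS2. They were taken by symbol from the count files, and all 8 were found among the 23368 symbols listed. The series measured RNA in 6 human blood cancer cell lines, each treated with 10 µM etoposide for 4 hours or left untreated. Etoposide is a topoisomerase II poison that causes double-strand breaks in DNA. The etoposide groups held 3 libraries each of NALM6, RAMOS, JURKAT, THP1 and U937 and 2 of 697. The control groups held 3 libraries each of NALM6, 697, RAMOS, JURKAT and THP1 and 2 of U937. By their labels the lines are pre-B (NALM6 and 697), mature B (RAMOS), T (JURKAT) and myeloid (THP1 and U937). SESN2 lies on chromosome 1, SESN1 on 6, DDIT4 on 10, SESN3 on 11, DRAM1 and GLS2 on 12, FDXR on 17 and SAT1 on X.

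The transcription factor p53 is stabilised by DNA damage and is best known for genes that stop the cell cycle or start apoptosis, but it also induces genes of metabolism. Sestrins bind the GATOR2 complex and hold back TORC1, the kinase complex that couples nutrients to growth on the lysosome, and DDIT4 (also called REDD1) reaches TORC1 through the TSC complex. FDXR passes electrons from NADPH to mitochondrial ferredoxin, SAT1 acetylates polyamines for their breakdown, DRAM1 is a lysosomal membrane protein of autophagy, and GLS2 is a mitochondrial glutaminase.

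Libraries held 8.18 to 37.1 M counts. Nothing says that replicates came from separate cultures, so p-values measure only the spread between libraries, part of which could be technical. A code in the file names divided the libraries into 4 sets, called pools here, and the code itself does not say what the sets are. The NALM6 and 697 etoposide libraries lay in another pool than their controls, so pool and treatment cannot be told apart in both pre-B lines. Each of the 4 other lines was in a single pool. The number of genes with a count was 15908 to 16132 in NALM6 etoposide libraries and 13917 to 14978 in controls, and 16408 and 17097 in 697 etoposide libraries and 14355 to 14738 in controls. The part of this difference in the pre-B results was not tested. Every line held the markers of its label at 1 CPM or more, 7 of 7 pre-B markers in NALM6 and 697, 7 of 7 B markers in RAMOS, 7 of 7 T markers in JURKAT and 9 of 9 myeloid markers in THP1 and U937. These counts do not tell pre-B from mature B, since NALM6 and 697 also held 7 of 7 B markers. Of the 7 pre-B markers, RAMOS held 4 in etoposide libraries and 6 in controls, and JURKAT held 4 in each group. In NALM6 the pre-B markers summed to 1361 to 1478 CPM in etoposide libraries and 3563 to 3849 CPM in controls, and in 697 to 1601 to 1657 CPM in etoposide libraries and 4462 to 4612 CPM in controls. Myeloid markers in NALM6, with 2 of 9 at 1 CPM or more in either group and ELANE at 0 in all libraries, summed to 80.9 to 94.9 CPM in etoposide libraries and 47.6 to 54.0 CPM in controls, and their part in the results was not tested.

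All 8 genes rose in NALM6 and all 8 rose in 697, while the other lines moved only some of them. SESN2 alone rose in all 6 lines. SESN1, SESN2, FDXR, DDIT4 and DRAM1 rose 9.13- to 18.04-fold in the pre-B lines, and SESN1 passed the test in no other line. SESN3 fell in THP1 and GLS2 fell in RAMOS, the only falls among the 47 member and line pairs tested. CPM is a share of a library, so more transcripts in each cell and more cells with the transcript cannot be told apart.

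Calls were read against the share of all tested genes called by edgeR at an adjusted p under 0.05. Statements that groups did or did not overlap describe the libraries and were not read against all genes. In NALM6, 8 of 8 rose against 41.3% of all genes, while 40.3% of all genes fell, with a median log2 fold change of 3.44 for the 8 genes and 0.015 for all genes. In 697, 8 of 8 rose against 39.4% of all genes, while 36.9% of all genes fell, with medians of 3.33 and 0.047. In RAMOS SESN2, DDIT4 and SAT1 rose against 34.2% of all genes and GLS2 fell against 35.5%. DRAM1 passed the filter on low counts there only through the etoposide libraries, so its higher value is a description. The RAMOS median was 0.26 for the 8 genes and -0.0022 for all genes. The first includes DRAM1, at 3.67, and would be lower without it. In JURKAT 2 of 7 tested rose against 6.71% of all genes, while 6.27% of all genes fell, with a median of 0.064 against -0.00081. DRAM1 had too few reads to be tested there. In THP1 4 rose and 1 fell, against 31.0% of all genes called in either direction, with a median of 0.21 against 0.0038. Of the 13983 genes tested in THP1, 1954 rose and 2379 fell. In U937 4 rose against 22.1% of all genes, and 22.1% of all genes fell, with a median of 0.41 against 0.0052. The counts of called genes in the gene lists further on stand beside these same shares, and in THP1 beside the genes that rose and fell there. No list was tested against all genes.

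**Figure D1:**
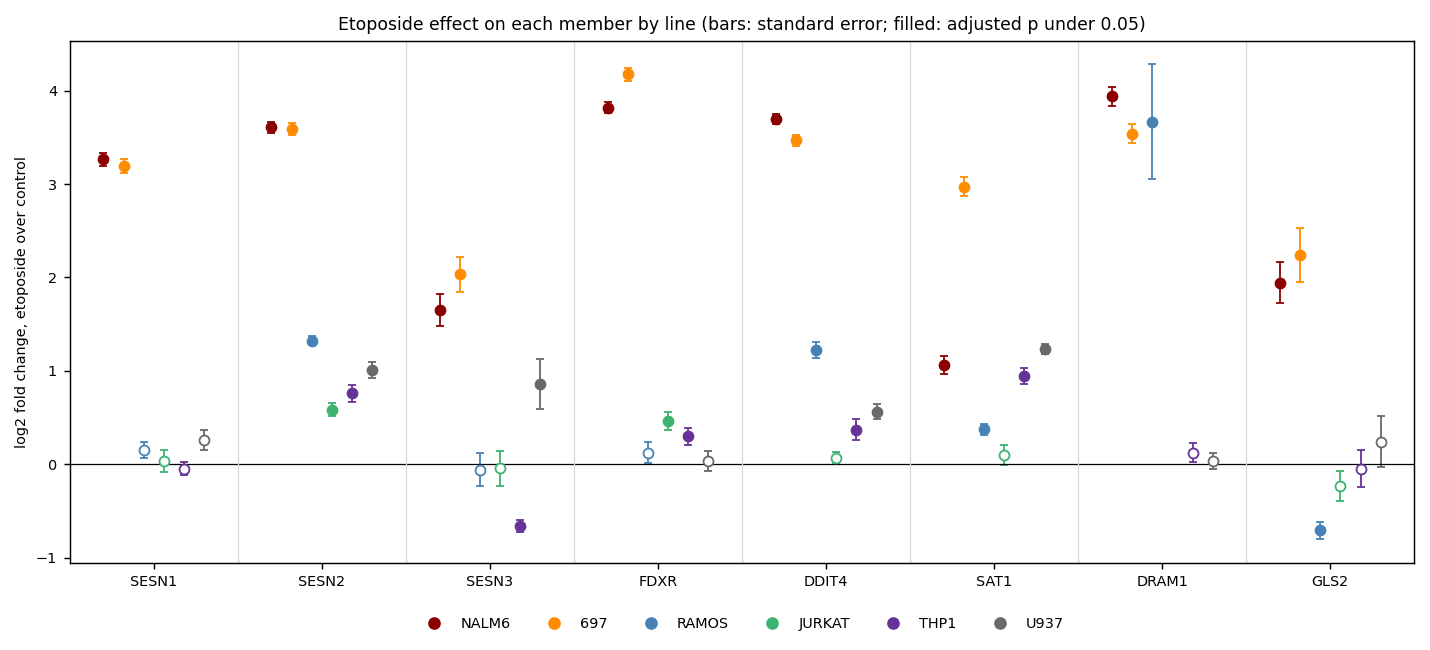
Log2 fold change of etoposide over control for the 8 genes (x axis) in each line (colours), with standard errors from edgeR and filled circles where the adjusted p was under 0.05. In the pre-B lines the values lie between 1.06 and 4.17, and in the 4 other lines between -0.71 and 3.67, the last being DRAM1 in RAMOS, a description that rests on controls with 0 to 3 counts.

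SESN1, the sestrin named first as a p53-regulated gene, separated the pre-B lines from the rest. The RefSeq table on GRCh38.p14 holds 3 start sites for SESN1, and the window of the start furthest downstream is shown because it holds a p53 half-site 49 bases before the start. The FDXR window is shown beside it because it also holds such a match, 11 bases before the start. Both windows run 250 bases before to 50 bases after the start, on the minus strand, at chr6:109008939-109009238 for SESN1 and chr17:74872945-74873244 for FDXR, and the capitals mark the match to the p53 half-site consensus on either strand.
SESN1: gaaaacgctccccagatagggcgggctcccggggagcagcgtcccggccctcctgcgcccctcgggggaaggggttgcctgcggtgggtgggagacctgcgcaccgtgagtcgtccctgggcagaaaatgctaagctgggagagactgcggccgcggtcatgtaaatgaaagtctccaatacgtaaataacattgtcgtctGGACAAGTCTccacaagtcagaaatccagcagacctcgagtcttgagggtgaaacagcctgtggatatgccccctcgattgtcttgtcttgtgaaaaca
FDXR: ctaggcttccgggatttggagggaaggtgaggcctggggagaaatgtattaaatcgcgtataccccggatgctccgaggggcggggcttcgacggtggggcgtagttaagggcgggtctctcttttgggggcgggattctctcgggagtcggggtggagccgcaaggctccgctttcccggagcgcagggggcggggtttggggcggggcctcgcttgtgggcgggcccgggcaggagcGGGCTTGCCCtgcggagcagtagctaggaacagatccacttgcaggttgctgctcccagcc
Of 35116 promoter windows of this length, 6.63% hold such a match, and 9 of the 11 windows of the 8 genes hold none. A match of letters is a description and not a site.

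SESN1 had 192, 196 and 198 CPM in NALM6 etoposide libraries, against 16.7, 23.3 and 20.005 CPM in NALM6 controls. In 697 it had 204 and 181 CPM in etoposide libraries, against 20.6, 22.1 and 21.5 CPM in controls. Every treated pre-B library thus lay far above every control, and the values of the 2 lines lay close together. The log2 fold changes were 3.27 ± 0.069 in NALM6 and 3.19 ± 0.072 in 697 (SE, edgeR adjusted p = 4.48e-37 and 5.07e-16). In RAMOS it had 24.5, 23.3 and 23.5 CPM in etoposide libraries, against 20.2, 23.6 and 20.01 CPM in controls, and the groups overlapped. The log2 fold changes of 0.16 in RAMOS, 0.038 in JURKAT and -0.049 in THP1 did not pass the test (edgeR adjusted p = 0.0897, 0.882 and 0.649). THP1 held the most SESN1 before treatment, and its groups overlapped at 36.9, 36.1 and 39.3 CPM in etoposide libraries and 40.3, 38.3 and 37.4 CPM in controls. In U937 the 14.3, 15.4 and 16.7 CPM of the etoposide libraries all lay above the 13.2 and 12.6 CPM of the controls, with a log2 fold change of 0.26 ± 0.11 that just missed the threshold (edgeR adjusted p = 0.0531). Leaving out single libraries brought a call in 2 lines, in RAMOS without control replicate 2 (log2 fold change 0.23, edgeR adjusted p = 0.0338) and in U937 without etoposide replicate 1 (0.31, 0.0261).

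**Figure D2:**
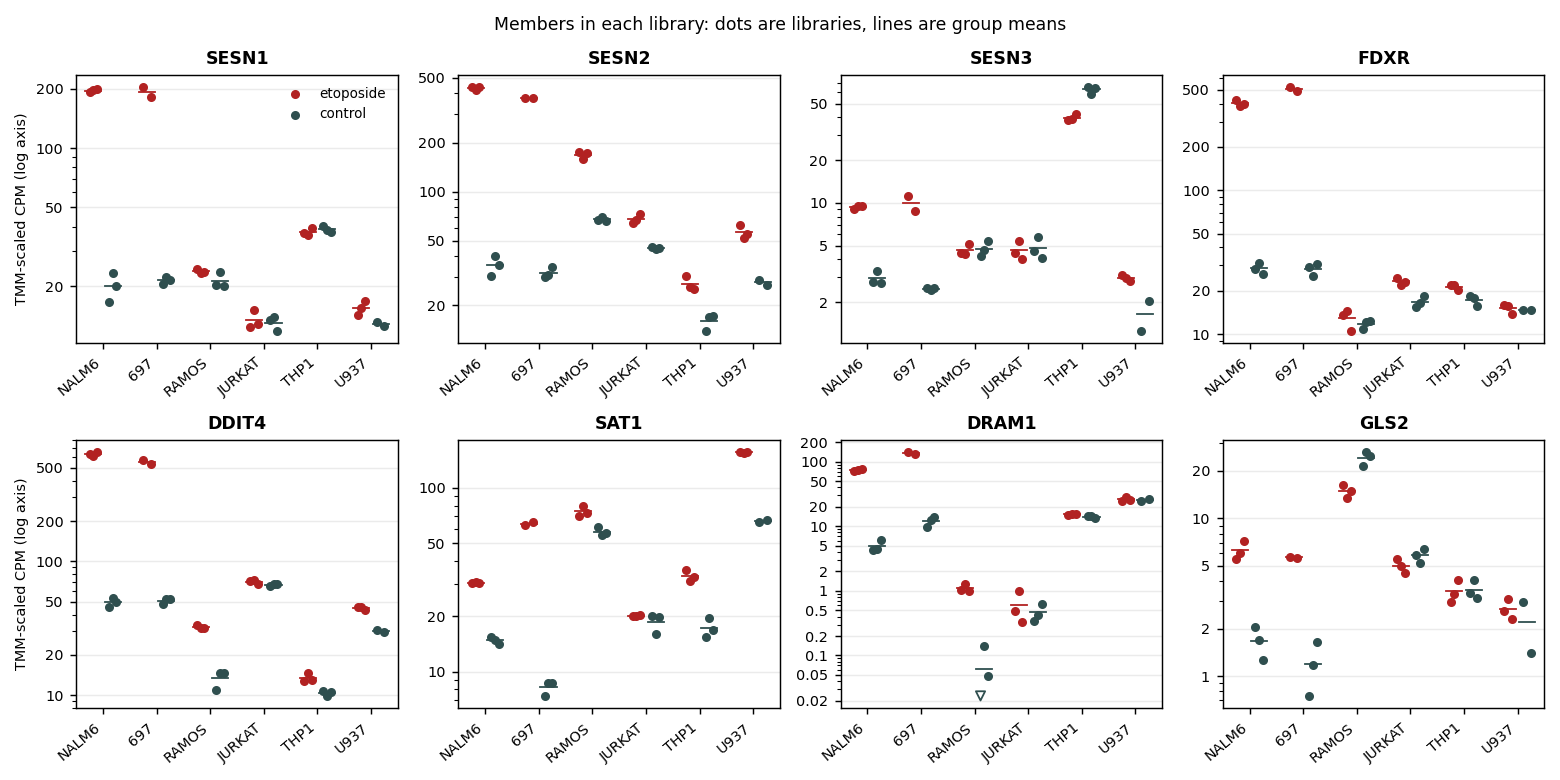
TMM-scaled CPM of each gene in each library on a log axis, etoposide libraries left of controls in each line, with short lines at group means. The open triangle marks the RAMOS control with 0 counts of DRAM1; SESN2 etoposide libraries lie above the controls of their line in every line, and SESN3 in THP1 and GLS2 in RAMOS lie below.

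SESN2, a leucine-binding sestrin that is known to respond to both p53 and the amino acid stress factor ATF4, rose in all 6 lines, as did 117 of the 10265 genes tested in all 6 (1.14%). It had 440.0, 419.8 and 438 CPM in NALM6 etoposide libraries, against 30.5, 40.1 and 35.4 CPM in NALM6 controls. In 697 it had 377 and 377 CPM in etoposide libraries, against 30.004, 30.7 and 34.4 CPM in controls. The treated pre-B libraries of both lines were the highest of the series and lay at 12.2-fold and 12.03-fold of their controls. RAMOS came next, at 176, 158 and 172 CPM in etoposide libraries, against 67.3, 69.5 and 66.1 CPM in controls. JURKAT had 63.9, 66.8 and 73.3 CPM in etoposide libraries, against 45.7, 44.5 and 45.2 CPM in controls. In both lines the groups stood apart by more than the spread within either. THP1, with the lowest level, had 30.2, 26.1 and 25.2 CPM in etoposide libraries, against 14.03, 16.9 and 17.3 CPM in controls. U937 had 62.2, 52.1 and 55.01 CPM in etoposide libraries, against 28.6 and 26.9 CPM in controls. In these myeloid lines too, the lowest etoposide library was above the highest control. The log2 fold changes ran from 0.59 ± 0.073 in JURKAT (SE, edgeR adjusted p = 9.36e-06), 0.76 ± 0.094 in THP1 (2.96e-08), 1.01 ± 0.085 in U937 (3.85e-11) and 1.32 ± 0.047 in RAMOS (6.93e-30) to 3.59 ± 0.064 in 697 (2.86e-17) and 3.61 ± 0.058 in NALM6 (3.79e-41). No alternative setting or left-out library ended any of these 6 calls.

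SESN3, the sestrin known as a target of FOXO factors, moved in opposite directions in the 2 myeloid lines. It had 38.2, 38.9 and 42.2 CPM in THP1 etoposide libraries, against 65.6, 58.5 and 64.1 CPM in THP1 controls, and every etoposide library lay below every control. The log2 fold change was -0.66 ± 0.065 (SE, edgeR adjusted p = 1.22e-10). In U937 the etoposide libraries had 3.13, 2.98 and 2.83 CPM, against 1.27 and 2.04 CPM in the 2 controls, which differed from each other almost as much as from the treated libraries. The log2 fold change of 0.86 ± 0.26 passed the test (edgeR adjusted p = 0.00855) but was 0.53 with an adjusted p of 0.242 without control replicate 1. The pre-B lines rose as well, with 9.09, 9.56 and 9.52 CPM in NALM6 etoposide libraries, against 2.78, 3.34 and 2.74 CPM in NALM6 controls. In 697 it had 11.2 and 8.84 CPM in etoposide libraries, against 2.51, 2.43 and 2.51 CPM in 697 controls. Their groups did not overlap, and the log2 fold changes were 1.66 ± 0.17 in NALM6 and 2.04 ± 0.19 in 697 (SE, edgeR adjusted p = 4.65e-12 and 3.96e-08), the smallest rises of the 3 sestrins there. RAMOS and JURKAT had 4.05 to 5.73 CPM with overlapping groups and log2 fold changes of -0.056 and -0.043, neither of which passed the test (edgeR adjusted p = 0.789 and 0.915).

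To compare the 3 sestrins with each other, CPM was divided by the length of each gene's merged exons in GENCODE v29, 5.121 kb for SESN1, 3.453 kb for SESN2 and 10.573 kb for SESN3. On this scale SESN2 had the highest group mean of the 3 in every group except THP1 controls. In THP1 etoposide libraries SESN2, at 7.29 to 8.76 CPM per kb, overlapped SESN1, at 7.05 to 7.68. The summed sestrin level was 164 ± 3.18 CPM per kb in NALM6 etoposide libraries and 14.4 ± 2.07 in controls, and 148 ± 3.29 in 697 etoposide libraries and 13.6 ± 0.733 in controls (SD). It was 53.9 ± 2.82 in RAMOS etoposide libraries and 24.2 ± 0.867 in controls, and 18.9 ± 0.648 in THP1 etoposide libraries and 18.1 ± 0.227 in controls. It was 22.8 ± 1.39 in JURKAT etoposide libraries and 16.1 ± 0.252 in controls, and 19.6 ± 1.37 in U937 etoposide libraries and 10.7 ± 0.394 in controls. The THP1 sums lay close together while the shares differed. SESN3 gave 19.9 ± 1.30% of the sum in THP1 etoposide libraries and 32.7 ± 1.68% in controls, and SESN2 gave 41.5 ± 3.13% in etoposide libraries and 25.6 ± 2.80% in controls (SD, n = 3 each). In the other 5 lines SESN2 gave 73.9% to 90.6% of the sum in etoposide groups and 67.5% to 81.3% in control groups. The lengths are those of all annotated exons and not of the transcripts each line uses.

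**Figure D3:**
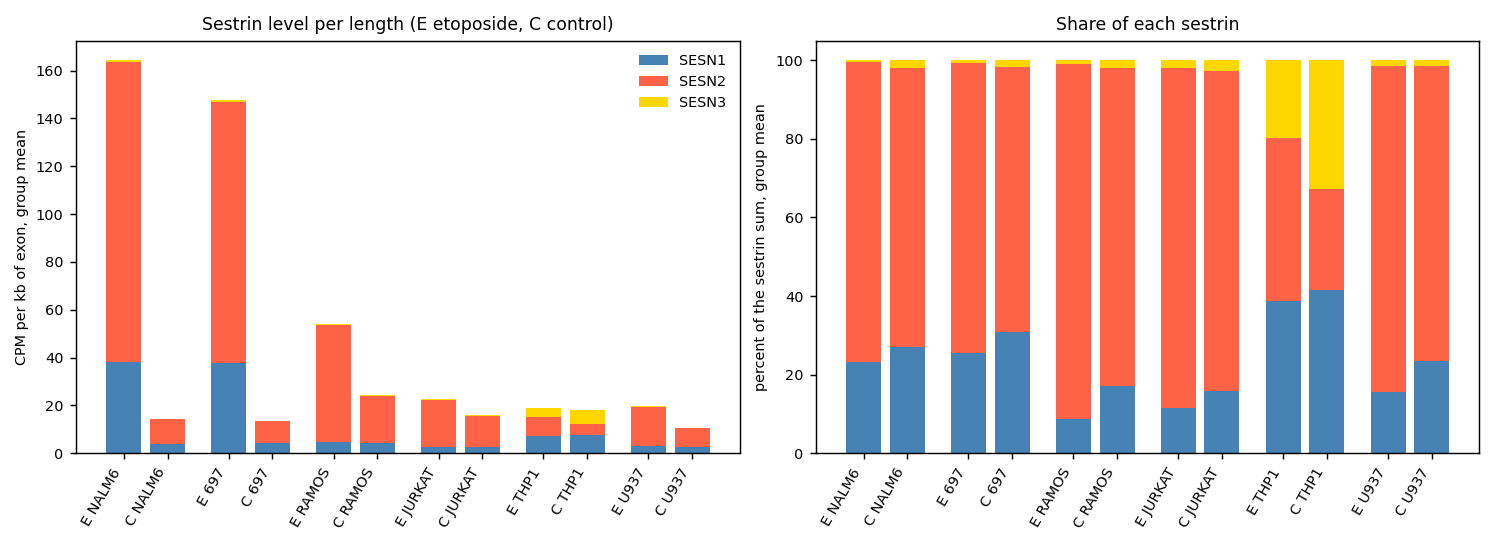
Left, stacked bars of the mean CPM per kb of exon of SESN1, SESN2 and SESN3 in each group, E for etoposide left of C for control. Right, each sestrin's mean percent of the sum of the 3. SESN2 gives most of the sum outside THP1, where SESN3 gives 19.9% in etoposide libraries and 32.7% in controls.

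FDXR, the reductase whose promoter window is shown above, had the largest rise of the 8 genes in 697. It had 422, 385 and 399 CPM in NALM6 etoposide libraries, against 28.3, 31.4 and 26.3 CPM in NALM6 controls. In 697 it had 525 and 489 CPM in etoposide libraries, against 29.04, 25.4 and 30.5 CPM in controls. Treated libraries of both pre-B lines lay far above every control library of the series. The log2 fold changes were 3.82 ± 0.059 and 4.17 ± 0.069 (SE, edgeR adjusted p = 2.77e-43 and 1.50e-17), or 14.1-fold and 18.04-fold. JURKAT, with 24.5, 22.04 and 23.2 CPM in etoposide libraries, against 15.5, 16.3 and 18.3 CPM in controls, rose by 0.47 ± 0.098 in log2 units (edgeR adjusted p = 0.00237). THP1, with 21.99, 21.9 and 20.2 CPM in etoposide libraries, against 18.5, 17.8 and 15.8 CPM in controls, rose by 0.30 ± 0.092 (0.011), a call that was lost without control replicate 3 (adjusted p = 0.0685) or without etoposide replicate 1 (0.0548). In both lines every etoposide library lay above every control. RAMOS and U937 groups overlapped, with log2 fold changes of 0.12 and 0.036 that did not pass the test (edgeR adjusted p = 0.329 and 0.819).

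FDX1, the ferredoxin that takes electrons from FDXR, did not follow it. FDX1 averaged 25.8 ± 1.72 CPM in 697 etoposide libraries and 42.2 ± 1.33 CPM in 697 controls (SD), a fall by 0.69 in log2 units (edgeR adjusted p = 1.64e-06), and it fell by 0.21 in NALM6 (0.0283) and 0.23 in RAMOS (0.0161). Of the list of 22 genes of iron-sulphur cluster assembly and ferredoxin use, 6 of 20 tested rose and 12 fell in NALM6, with a median log2 fold change of -0.28, and 5 of 21 rose and 12 fell in 697, with a median of -0.35. GLRX5, a glutaredoxin of cluster transfer, fell in NALM6, with 51.9 CPM in etoposide libraries and 161 CPM in controls. ISCU, the assembly scaffold, rose in 697, with 104 CPM in etoposide libraries and 37.04 CPM in controls. IBA57, a late assembly factor, rose in both pre-B lines, THP1 and U937, by 1.44, 1.22, 0.68 and 0.59 on the log2 scale. These shares stand beside 41.3% of all genes higher and 40.3% lower in NALM6 and 39.4% higher and 36.9% lower in 697. In RAMOS 6 of 19 rose and 9 fell. Elsewhere 1 of 20 rose and 2 fell in JURKAT, 1 of 22 rose and 1 fell in THP1, and 3 of 20 rose and 5 fell in U937.

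DDIT4, which restrains TORC1 and is also known as a hypoxia and glucocorticoid gene, rose in 5 lines. Its promoter window is shown because it holds ACGTG, the core letters of the hypoxia response element, 125 bases before the start (capitals, searched on both strands, found in 21.4% of all promoter windows). The window lies at chr10:72273674-72273973 on the plus strand in GRCh38.p14.
DDIT4: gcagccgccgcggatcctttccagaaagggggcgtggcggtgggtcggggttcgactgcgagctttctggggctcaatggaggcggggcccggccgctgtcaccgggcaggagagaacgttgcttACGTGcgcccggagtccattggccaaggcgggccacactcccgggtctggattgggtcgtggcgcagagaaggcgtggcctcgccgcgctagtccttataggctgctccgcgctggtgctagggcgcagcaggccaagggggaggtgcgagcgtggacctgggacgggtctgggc
Neither a p53 half-site nor TATAAA was found in it.

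DDIT4 had 639, 616 and 656 CPM in NALM6 etoposide libraries, against 45.8, 52.8 and 49.9 CPM in NALM6 controls. In 697 it had 572 and 535 CPM in etoposide libraries, against 47.7, 52.2 and 52.1 CPM in controls. The pre-B groups were wide apart, with log2 fold changes of 3.69 ± 0.052 in NALM6 and 3.47 ± 0.059 in 697 (SE, edgeR adjusted p = 8.72e-45 and 1.44e-17). RAMOS had 33.2, 31.6 and 31.7 CPM in etoposide libraries, against 10.9, 14.5 and 14.7 CPM in controls. U937 had 45.6, 45.3 and 43.5 CPM in etoposide libraries, against 30.8 and 29.5 CPM in controls. Both rose without overlap, by 1.22 ± 0.086 in RAMOS and 0.56 ± 0.078 in U937 on the log2 scale (SE, edgeR adjusted p = 7.73e-18 and 6.61e-07). THP1 rose by 0.37 ± 0.11 (edgeR adjusted p = 0.0094), a call that was lost without etoposide replicate 2 (log2 fold change 0.31, adjusted p = 0.0716). JURKAT, with the highest untreated level, had 70.8, 72.96 and 67.1 CPM in etoposide libraries and 65.8, 67.1 and 68.2 CPM in controls, which overlapped (edgeR adjusted p = 0.581). DDIT4L, the paralogue of DDIT4, went the other way in NALM6, at 33.2 ± 1.59 CPM in NALM6 etoposide libraries and 197 ± 5.04 CPM in NALM6 controls, a fall by 2.55 in log2 units (edgeR adjusted p = 1.00e-35).

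Of 15 other genes known to respond to hypoxia or glucocorticoids, as DDIT4 does, 7 of 14 tested rose and 6 fell in NALM6 (median log2 fold change 0.74), and 6 of 13 rose and 5 fell in 697 (-0.11). In RAMOS 6 of 11 rose and 4 fell (0.25). VEGFA, the vascular growth factor gene, rose in all 6 lines, from 0.32 in THP1, 0.50 in U937, 0.67 in JURKAT and 1.23 in RAMOS to 2.44 in NALM6 and 2.66 in 697 on the log2 scale. In NALM6 the hypoxia genes BNIP3L and EGLN1 fell, with 16.2 CPM in etoposide libraries and 66.1 CPM in controls for BNIP3L and 23.7 CPM in etoposide libraries and 84.6 CPM in controls for EGLN1. FKBP5, a glucocorticoid gene, fell in 697, with 153 CPM in etoposide libraries and 388 CPM in controls. Elsewhere 3 of 14 rose and 0 fell in JURKAT, 1 of 12 rose and 2 fell in THP1, and 6 of 13 rose and 2 fell in U937.

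SAT1, the enzyme that acetylates polyamines for their breakdown, rose in 5 lines. It had 30.3, 30.7 and 30.5 CPM in NALM6 etoposide libraries, against 15.5, 14.8 and 14.2 CPM in NALM6 controls. The 697 line had 62.5 and 65.1 CPM in etoposide libraries, against 7.38, 8.67 and 8.63 CPM in controls. 697 thus started below NALM6 and ended above it, with log2 fold changes of 2.97 ± 0.099 in 697 and 1.06 ± 0.094 in NALM6 (SE, edgeR adjusted p = 5.89e-14 and 4.50e-14). U937 had the highest level, 157, 155 and 157 CPM in etoposide libraries, against 65.6 and 66.5 CPM in controls. THP1 had 35.9, 31.1 and 32.9 CPM in etoposide libraries, against 15.5, 19.6 and 16.8 CPM in controls. Both myeloid lines rose without overlap, by 1.23 ± 0.057 in U937 and 0.94 ± 0.088 in THP1 on the log2 scale (SE, edgeR adjusted p = 5.95e-17 and 3.44e-11), close to the rise in NALM6 from the counts. The authors' deposited log2 fold change of SAT1 in NALM6 was higher, at 2.74. RAMOS rose by 0.37 ± 0.061 (edgeR adjusted p = 4.05e-07), from libraries at 70.7, 79.96 and 72.8 CPM with etoposide and 61.03, 55.5 and 57.2 CPM in controls. JURKAT etoposide libraries, at 19.995, 20.1 and 20.3 CPM, overlapped the controls, at 20.2, 15.97 and 19.95 CPM (edgeR adjusted p = 0.588).

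The polyamine genes around SAT1 moved in both directions. ODC1, the enzyme that starts polyamine synthesis, fell by 0.49 in NALM6, 0.61 in 697 and 0.34 in RAMOS on the log2 scale, rose by 0.21 in JURKAT (edgeR adjusted p = 2.86e-15, 6.74e-09, 4.19e-11 and 0.00609) and did not pass in THP1 and U937. SAT2, the paralogue of SAT1, averaged 23.3 ± 0.930 CPM in 697 etoposide libraries and 10.2 ± 0.348 CPM in 697 controls (SD) and rose there by 1.21 on the log2 scale (4.44e-08), while it fell in JURKAT by 0.48 (0.0165). Of 19 polyamine genes, 4 of 15 tested rose and 8 fell in NALM6 (median -0.39), and 5 of 17 rose and 9 fell in 697 (median -0.32), where 40.3% of all genes fell in NALM6 and 36.9% in 697. SMOX, the spermine oxidase that works beside SAT1 in polyamine breakdown, rose in both, with 30.3 CPM in etoposide libraries and 5.31 CPM in controls in NALM6 and 51.3 CPM in etoposide libraries and 13.04 CPM in controls in 697. AMD1, a decarboxylase of synthesis, fell in NALM6, with 136 CPM in etoposide libraries and 259 CPM in controls. SLC3A2, an amino acid transporter chain counted with the polyamine list, rose in all 6 lines, by 0.28 to 0.93 on the log2 scale. In RAMOS 5 of 15 rose and 6 fell. Elsewhere 2 of 15 rose and 1 fell in JURKAT, 1 of 17 rose and 2 fell in THP1, and 2 of 15 rose and 3 fell in U937.

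DRAM1, the p53 target known for its part in autophagy, rose in both pre-B lines. It had 70.2, 75.1 and 76.04 CPM in NALM6 etoposide libraries, against 4.26, 4.48 and 6.18 CPM in NALM6 controls. The 697 values were 140.5 and 133 CPM in etoposide libraries, against 9.73, 12.3 and 13.6 CPM in controls. Both groups of treated pre-B libraries lay above every other library of the series, with log2 fold changes of 3.94 ± 0.10 and 3.54 ± 0.098 (SE, edgeR adjusted p = 8.50e-34 and 9.04e-14). THP1 and U937 controls had higher mean DRAM1 than the pre-B controls, and these lines did not pass the test, at 13.4 to 15.7 CPM in THP1 and 24.5 to 28.2 CPM in U937 over both groups (edgeR adjusted p = 0.372 and 0.776), although every THP1 etoposide library lay above every THP1 control. In RAMOS the gene was near the limit of detection, with 22, 17 and 14 counts in etoposide libraries, against 0, 3 and 1 in controls. It passed the filter on low counts only through the etoposide libraries, so the values are given as a description. The ratio of summed counts per total was 13.9 (95% exact interval 5.12 to 52.9, counting error only), and the fitted log2 fold change was 3.67 ± 0.61 (SE), or 3.34 to 4.68 with 1 library left out, and depends on the prior count. JURKAT had 12, 19 and 6 counts in etoposide libraries, against 4, 6 and 12 in controls, a ratio per total of 1.23 (0.704 to 2.18), and was not tested.

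DRAM2, the paralogue of DRAM1, fell in NALM6 to 18.1 ± 2.95 CPM in etoposide libraries, against 33.3 ± 0.248 CPM in controls (SD, edgeR adjusted p = 9.23e-11), and also in RAMOS and THP1 by 0.32 and 0.19 on the log2 scale (1.41e-06 and 0.0118). Of 42 autophagy and lysosome genes, 15 of 41 tested rose and 18 fell in NALM6, 16 of 40 rose and 17 fell in 697, and 17 of 40 rose and 10 fell in RAMOS, with medians of -0.046, -0.13 and 0.061 on the log2 scale. SQSTM1, the cargo receptor p62, rose in these 3 lines, THP1 and U937, by 1.01 in NALM6, 1.61 in 697, 1.78 in RAMOS, 0.65 in THP1 and 0.38 in U937. TFEB, the transcription factor of lysosome genes, rose in RAMOS, with 119 CPM in etoposide libraries and 21.98 CPM in controls. LAMP2, a lysosomal membrane protein, and ATG3, an enzyme of LC3 lipidation, fell in NALM6, by 1.47 and 1.26. Elsewhere 2 of 41 rose and 3 fell in JURKAT, 10 of 42 rose and 12 fell in THP1, and 8 of 40 rose and 13 fell in U937.

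GLS2 was scarce in the pre-B lines, where it rose, and most abundant in RAMOS, where it fell. It had 5.55, 6.05 and 7.20 CPM in NALM6 etoposide libraries, against 2.04, 1.69 and 1.26 CPM in NALM6 controls. The 697 line had 5.67 and 5.64 CPM in etoposide libraries, against 0.749, 1.18 and 1.66 CPM in controls. The groups did not overlap, and the log2 fold changes were 1.95 ± 0.22 in NALM6 and 2.24 ± 0.29 in 697 (SE, edgeR adjusted p = 1.04e-10 and 2.18e-06). RAMOS had 16.3, 13.5 and 14.8 CPM in etoposide libraries, against 21.4, 26.3 and 24.7 CPM in controls, all etoposide libraries being lower, with a log2 fold change of -0.71 ± 0.09 (edgeR adjusted p = 1.22e-09). JURKAT, THP1 and U937 groups overlapped, with log2 fold changes of -0.23, -0.048 and 0.24 that did not pass the test (edgeR adjusted p = 0.406, 0.886 and 0.5). On the opposite strand, a single exon of SPRYD4 shares 3193 bases with GLS2 exons in GENCODE v29, the largest overlap of any SPRYD4 exon. Whether counting used the strand is not given in the sources used here, so reads of these genes may not be told apart. SPRYD4 averaged 23.4 CPM in RAMOS etoposide libraries and 22.7 CPM in controls, 20.96 CPM in NALM6 etoposide libraries and 17.03 CPM in controls, and 13.9 CPM in 697 etoposide libraries and 15.3 CPM in controls. Its log2 fold changes of 0.067, 0.34 and -0.14 in RAMOS, NALM6 and 697 had edgeR adjusted p = 0.497, 0.00382 and 0.337, and its part in the GLS2 counts was not tested.

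Of 24 genes of glutamine and glutathione metabolism, 9 rose and 13 fell in NALM6, 7 rose and 13 fell in 697, and 8 rose and 11 fell in RAMOS, with median log2 fold changes of -0.37, -0.24 and -0.091. ASNS, asparagine synthetase, rose in these 3 lines, by 1.66, 1.70 and 1.41. GPX1, glutathione peroxidase, rose in NALM6 and 697 by 1.54 and 1.496, and GMPS, a glutamine-using enzyme of guanine nucleotide synthesis, fell by 1.39 and 1.54. Elsewhere 3 of 24 rose and 1 fell in JURKAT, 1 of 24 rose and 3 fell in THP1, and 5 of 24 rose and 8 fell in U937. Of 20 antioxidant genes, 1 of 18 tested rose and 14 fell in NALM6 (median -0.49), and 3 of 18 rose and 7 fell in 697 (-0.081), beside 40.3% of all genes lower in NALM6 and 36.9% in 697. PRDX3, the mitochondrial peroxiredoxin, fell in NALM6, with 137 CPM in etoposide libraries and 349 CPM in controls. In RAMOS 9 of 20 rose and 3 fell, and NFE2L2, the antioxidant transcription factor NRF2, rose with 192 CPM in etoposide libraries and 99.7 CPM in controls. Elsewhere 3 of 19 rose and 0 fell in JURKAT, 2 of 20 rose and 3 fell in THP1, and 2 of 20 rose and 6 fell in U937.

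The genes through which sestrins and DDIT4 act on TORC1 moved in both directions, in NALM6 in shares near those of all genes. Of 41 such genes (GATOR, KICSTOR, RAG, LAMTOR, TSC, TORC1 and AMPK subunits), 17 of 40 tested rose and 16 fell in NALM6, 14 of 40 rose and 17 fell in 697, and 14 of 39 rose and 18 fell in RAMOS, with medians of 0.0036, -0.036 and -0.10. Of all genes 41.3% rose and 40.3% fell in NALM6, 39.4% rose and 36.9% fell in 697, and 34.2% rose and 35.5% fell in RAMOS. PRKAB1, an AMPK beta subunit known as a p53 target, rose in both pre-B lines, with 315 CPM in etoposide libraries and 71.3 CPM in controls in NALM6 and 193 CPM in etoposide libraries and 42.1 CPM in controls in 697. RRAGD, a RAG GTPase, fell in NALM6 by 1.78 on the log2 scale. RPTOR, the TORC1 scaffold, fell in RAMOS, JURKAT, THP1 and U937, by 0.98, 0.68, 0.42 and 1.07 on the log2 scale. DEPTOR, a TORC1 inhibitor, fell in RAMOS, with 59.9 CPM in etoposide libraries and 250.5 CPM in controls. Elsewhere 1 of 41 rose and 1 fell in JURKAT, 3 of 40 rose and 8 fell in THP1, and 8 of 40 rose and 7 fell in U937.

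Set beside 25 other p53 targets, the 8 genes shared the larger median rise in the pre-B lines. The list was chosen with earlier results of these data known. All 24 tested rose in NALM6 and all 24 in 697, with median log2 fold changes of 2.62 and 2.25. Of those tested, 8 of 22 rose and 6 fell in RAMOS, 10 of 23 rose in JURKAT, 9 of 24 rose and 1 fell in THP1, and 15 of 22 rose and 2 fell in U937, with medians of 0.027, 0.13, 0.16 and 0.30. Of all genes, 41.3% rose in NALM6, 39.4% in 697, 34.2% in RAMOS, 6.71% in JURKAT and 22.1% in U937. In RAMOS 35.5% of all genes fell, and in THP1 31.0% were called in either direction. CDKN1A, the cell cycle inhibitor p21, averaged 6710.0 ± 226 CPM in NALM6 etoposide libraries and 168 ± 7.13 CPM in NALM6 controls and 4882 ± 153 CPM in 697 etoposide libraries and 171 ± 5.46 CPM in 697 controls (SD). CDKN1A also rose in RAMOS, JURKAT, THP1 and U937, by 2.198, 0.93, 0.49 and 1.44 on the log2 scale. MDM2, the p53 ubiquitin ligase, rose by 2.69 in NALM6, 1.11 in 697 and 0.33 in U937 and fell by 1.58 in RAMOS and 0.28 in THP1. Of 17 p53 targets of glycolysis and energy use, 11 of 17 rose and 4 fell in NALM6, 12 of 17 rose and 4 fell in 697, and 4 of 13 rose and 9 fell in RAMOS, with medians of 0.37, 0.68 and -0.80. The glycolysis regulator TIGAR, listed under its older symbol C12orf5, rose in NALM6 and 697 by 1.39 and 2.06. Elsewhere 1 of 17 rose and 0 fell in JURKAT, 1 of 16 rose and 3 fell in THP1, and 4 of 16 rose and 5 fell in U937.

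SESN2 is also an ATF4 target, and of 20 other ATF4 targets 14 of 19 tested rose and 5 fell in NALM6, 14 of 20 rose and 3 fell in 697, and 15 of 19 rose and 3 fell in RAMOS, with medians of 0.75, 1.18 and 0.67. In JURKAT 5 of 19 rose and 1 fell, in THP1 5 of 20 rose and 4 fell, and in U937 7 of 20 rose and 4 fell. DDIT3, the stress factor CHOP, rose in NALM6, 697, JURKAT, THP1 and U937, by 3.84, 3.26, 0.43, 0.69 and 2.09 on the log2 scale. PPP1R15A, the stress phosphatase subunit GADD34, rose in NALM6, 697, RAMOS, THP1 and U937, by 3.78, 3.89, 1.40, 0.73 and 1.25. In RAMOS ASNS had 2168 CPM in etoposide libraries and 814 CPM in controls, and SLC7A5, an amino acid transporter, fell in U937, with 430.4 CPM in etoposide libraries and 734 CPM in controls. ASNS and SLC7A5 also stand in the glutamine list, RRM2B in both lists of p53 targets and PRKAB1 in the TORC1 and energy lists, so these counts are not independent.

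**Figure D4:**
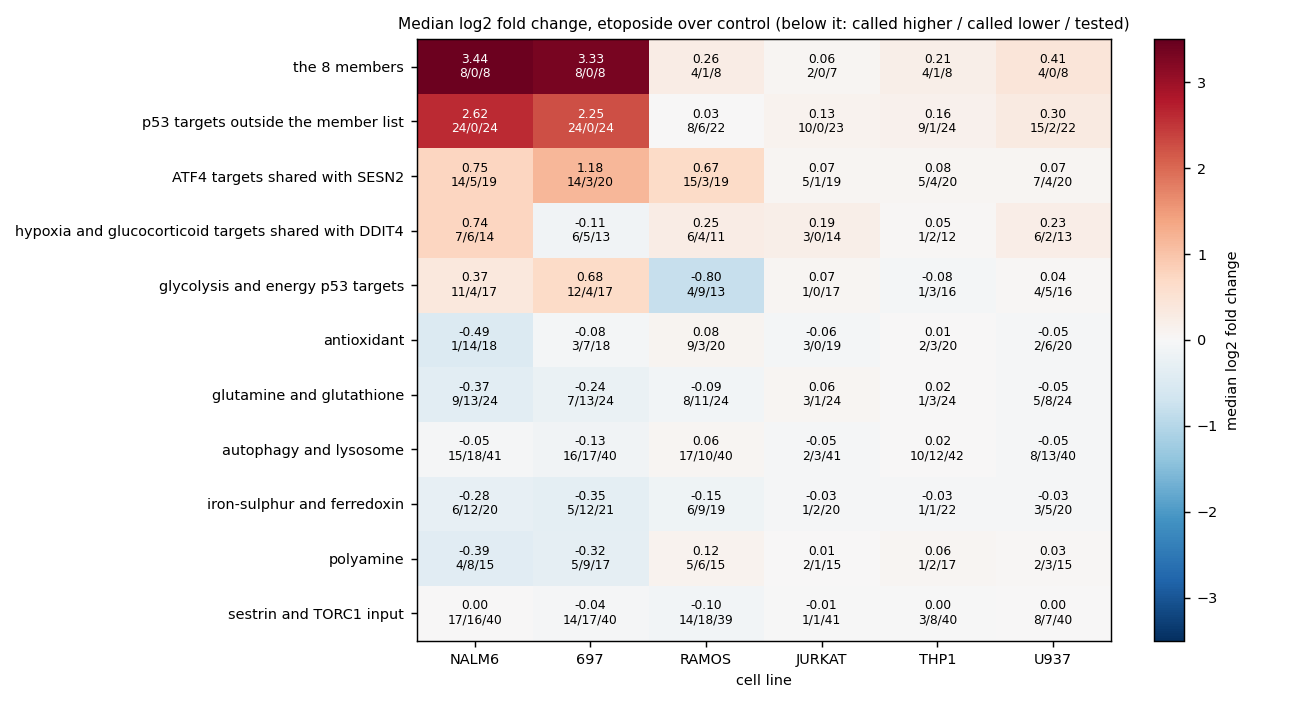
Colour and upper number, median log2 fold change of etoposide over control for the 8 genes and 10 gene lists (rows) in each line (columns); below it, genes called higher, called lower and tested by edgeR at an adjusted p under 0.05. The 8 genes and the other p53 targets have medians of 2.25 to 3.44 in the pre-B lines and of 0.027 to 0.41 in the 4 other lines. The RAMOS values of the 8 genes include DRAM1, which is a description there.

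The difference of the etoposide effect between lines was tested directly in 1 edgeR fit of all 34 libraries. Relative to the 4 other lines, the pre-B lines moved every member other than DRAM1 further upwards, against 30.7% of all genes called in that direction. DRAM1 is left out of this count, and its higher value is given below as a description. The differences of log2 fold change, pre-B lines minus the 4 other lines, were 3.74 ± 0.071 for FDXR, 3.11 ± 0.076 for SESN1 and 3.01 ± 0.058 for DDIT4 (SE, edgeR adjusted p = 1.62e-51, 3.64e-45 and 4.71e-51). They were 2.66 ± 0.066 for SESN2, 2.26 ± 0.20 for GLS2, 1.79 ± 0.14 for SESN3 and 1.33 ± 0.077 for SAT1 (edgeR adjusted p = 1.36e-42, 1.91e-16, 4.89e-18 and 1.30e-24). The median over all genes of this contrast was 0.16, and each of the 8 differences also holds the change of pool in the pre-B lines. The DRAM1 difference includes the RAMOS controls with 0 to 3 counts and JURKAT libraries with 4 to 19.

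Between the 2 pre-B lines, SAT1 differed by -1.91 ± 0.13 on the log2 scale, NALM6 minus 697 (SE, edgeR adjusted p = 2.00e-19), so that NALM6 rose less than 697. In the authors' deposited table SAT1 had a log2 fold change of 2.74 in NALM6 and 2.95 in 697, so this difference rests on the count files. FDXR also rose less in NALM6, by 0.36 (0.00606), and lost the call without NALM6 control replicate 2 (adjusted p = 0.0691). DDIT4 rose 0.22 more in NALM6 (0.0486), a call that 7 of 11 left-out libraries of these lines ended, the largest adjusted p being 0.213 without 697 etoposide replicate 2. These were 3 of 8 genes, against 31.2% of all genes called. SESN1 and SESN2 differed by 0.074 ± 0.12 and 0.017 ± 0.11 and did not pass.

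RAMOS and JURKAT differed in 3 of the 7 genes other than DRAM1, against 35.8% of all genes. RAMOS rose more in SESN2 by 0.73 ± 0.10 and in DDIT4 by 1.15 ± 0.10 (SE, edgeR adjusted p = 1.88e-08 and 1.62e-15), while FDXR moved 0.35 less (0.0381), a call that 7 left-out libraries ended, with adjusted p from 0.0624 without JURKAT etoposide replicate 3 to 0.198 without RAMOS etoposide replicate 3. THP1 minus U937 passed for SESN3 alone, at -1.53 ± 0.23 (8.79e-07), 1 of 8 genes against 7.06% of all called in that direction. The opposite moves of SESN3 in the 2 myeloid lines therefore differed by more than their spread, and their difference kept its call when any 1 library was left out. The myeloid lines, minus RAMOS and JURKAT, rose more in SAT1 by 0.86 ± 0.08 and differed in GLS2 by 0.56 ± 0.19 (SE, edgeR adjusted p = 5.59e-14 and 0.0252), 2 of the 7 genes other than DRAM1 against 21.9% of all. DRAM1 is left out of these counts because its RAMOS controls held 0 to 3 counts. The GLS2 call was lost with any of 5 libraries left out, at most with an adjusted p of 0.24 without U937 control replicate 2.

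Before treatment the lines already differed in these genes. Of 120 gene and line pairs, DRAM1 included, 107 passed the test, against 74.4% of the tests over all genes, or 57.1% to 81.1% in each of the 15 pairs of lines. The pairs share lines and are not independent. DRAM1 passed the filter on low counts through other groups. Its pairs with RAMOS controls, at 0 to 3 counts, or JURKAT controls, at 4 to 12, are descriptions. Line and pool cannot be told apart where the lines lay in different pools. SESN1 was highest in THP1, at 38.7 ± 1.44 CPM, then 21.4 ± 0.777 in 697, 21.3 ± 2.03 in RAMOS, 19.998 ± 3.31 in NALM6, 13.1 ± 1.05 in JURKAT and 12.9 ± 0.430 in U937 (SD). The neighbours 697, RAMOS and NALM6, and JURKAT and U937, did not pass the test. SESN2 ran from 67.6 ± 1.73 CPM in RAMOS over 45.1 ± 0.628 in JURKAT, 35.4 ± 4.81 in NALM6, 31.7 ± 2.34 in 697 and 27.7 ± 1.25 in U937 to 16.1 ± 1.77 in THP1, each neighbour passing, NALM6 over 697 and 697 over U937 narrowly (edgeR adjusted p = 0.0479 and 0.0492). These 2 calls were lost under RLE scaling (0.178 and 0.0511 by edgeR), under DESeq2 (0.23 and 0.0662) and with a replicate block (0.0546 and 0.0722 by edgeR). SESN3 stood out in THP1, at 62.7 ± 3.72 CPM, against 4.80 ± 0.841 in JURKAT, the next, and 1.65 ± 0.545 in U937, the lowest. Between them RAMOS had 4.74 ± 0.568, NALM6 2.95 ± 0.338 and 697 2.48 ± 0.0476, and the neighbours JURKAT and RAMOS, and NALM6 and 697, did not pass the test.

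FDXR was highest in the pre-B lines, at 28.7 ± 2.57 CPM in NALM6 and 28.3 ± 2.63 in 697, and lowest in RAMOS, at 11.7 ± 0.796. THP1, JURKAT and U937 lay between, at 17.3 ± 1.40, 16.7 ± 1.46 and 14.7 ± 0.136, and neither NALM6 and 697 nor neighbours among these 3 lines passed the test. DDIT4 led in JURKAT, at 67.01 ± 1.19 CPM, before 50.7 ± 2.60 in 697 and 49.5 ± 3.54 in NALM6, a pair that did not pass, 30.1 ± 0.934 in U937, 13.4 ± 2.15 in RAMOS and 10.4 ± 0.462 in THP1. SAT1 led in U937, at 66.05 ± 0.685 CPM, and RAMOS, at 57.9 ± 2.85, before 18.7 ± 2.36 in JURKAT and 17.3 ± 2.08 in THP1, a pair that did not pass, 14.8 ± 0.651 in NALM6 and 8.23 ± 0.733 in 697. DRAM1 spanned the widest range, with 25.3 ± 1.08 CPM in U937, 14.05 ± 0.555 in THP1, 11.9 ± 1.98 in 697, 4.97 ± 1.05 in NALM6 and 0.467 ± 0.151 in JURKAT, and 0 to 0.140 CPM in RAMOS. The RAMOS value rests on 4 counts in 3 libraries, where 3 counts correspond to 0.132 to 0.367 CPM of a library. GLS2 led in RAMOS, at 24.2 ± 2.50 CPM, before 5.84 ± 0.588 in JURKAT, 3.53 ± 0.475 in THP1, 2.19 ± 1.10 in U937, 1.66 ± 0.388 in NALM6 and 1.19 ± 0.453 in 697, the last 3 not passing between neighbours. The 2 pre-B lines thus had the lowest mean untreated SAT1 and GLS2 and the highest mean FDXR. Leaving out 1 library ended the calls of 7 neighbouring pairs, with a highest adjusted p of 0.617 without NALM6 control replicate 2 for SESN2 in NALM6 and 697, 0.255 without 697 control replicate 3 for SESN2 in 697 and U937, 0.375 without U937 control replicate 1 for SESN3 in 697 and U937 and 0.414 without 697 control replicate 1 for DRAM1 in THP1 and 697. It was 0.243 without THP1 control replicate 2 for SAT1 in THP1 and NALM6, 0.0938 without RAMOS control replicate 2 for SAT1 in U937 and RAMOS, and 0.431 without U937 control replicate 2 for GLS2 in THP1 and U937 (edgeR).

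Across the 12 group means of log2 CPM, the 8 genes fell into patterns of their own. SESN1 and FDXR were the most alike (Pearson r = 0.91), followed by FDXR and DDIT4 (0.89) and SESN2 and DDIT4 (0.81), while DRAM1 and GLS2 ran most against each other (-0.52). SAT1 was at 0.41 or below with each of the other members. The points share libraries within a line and their scaling, so these values are descriptions. DRAM1 was near the limit of detection in RAMOS and JURKAT, so its correlations rest in part on very low counts. Among 11177 genes with a mean log2 CPM of at least 1, the 3 most like SESN1 were GADD45A, ZNF561 and RABGGTA (r = 0.975, 0.961 and 0.955), and those most like FDXR were PLK3, BBC3 and RGS16 (0.973, 0.963 and 0.960). GADD45A, PLK3 and BBC3 stand in the list of other p53 targets. For SESN2 they were led by CIC and MRPL49 (0.963 and 0.953), for DDIT4 ACTA2, PRR22 and MUC20 (0.969 to 0.942), for SESN3 TEP1, MR1 and MMP14 (0.957 to 0.936) and for GLS2 SLC5A3, LPP-AS2 and SFI1 (0.950 to 0.945). SAT1 had the loosest matches, FAM103A1, PRR14 and RAP2B (0.897 to 0.873), and DRAM1 had SNX32, IGFBP4 and TIMM21 (0.942 to 0.937).

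The authors' deposited tables of their own DESeq2 comparisons gave the same call and the same sign as the counts for all 47 of 47 member and line pairs tested. DRAM1 in RAMOS is among these pairs as a description only. In 697, RAMOS, JURKAT, THP1 and U937 the authors' deposited log2 fold changes differed from those computed here by a median of 0.00794 to 0.0246 over the genes called. DRAM1 in RAMOS, with 0 to 3 counts in controls, was the farthest member, at 2.27 in the authors' deposited table and 3.67 here. In NALM6 the authors' deposited values differed from the counts by a median of 0.259 over 10247 genes called, with 92.6% of the same sign, and by a median of 0.243 over the 8 genes. SAT1 was farthest, at 2.74 in the authors' deposited table and 1.06 from the counts, and SESN3 was at 2.18 and 1.66. The cause was not tested.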

How the data were processed

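RNA from 34 libraries was compared. Per the labels' protocols, Trizol served for RNA extraction and a TruSeq kit for the libraries. The authors deposited whole-number read counts per gene symbol for each library and, for each line, a comparison table with log2 fold changes and adjusted p-values. Per the submitters' processing notes, HISAT, HTSeq and DESeq2 were used with hg19, while versions, strand setting and annotation were not given in the sources used here.

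The counts were used as deposited. In each line edgeR 4.0.16 in R 4.3.3 (with limma 3.58.1) fitted all genes that passed filterByExpr with a minimum count of 10, with TMM scaling, a robust quasi-likelihood F test and Benjamini-Hochberg adjustment, and genes with an adjusted p under 0.05 are said to have risen or fallen. Differences between lines and untreated levels came from 1 such fit of all libraries, which also gave the TMM-scaled CPM printed. Totals of 8.18 to 37.1 M counts set the precision, and intervals cover counting error only. The scripts were tested on simulated data. No pair of replicates agreed within sampling noise. Over 16 same-numbered pairs of etoposide and control libraries, deviations correlated at -0.12 to 0.06. With groups of 2 or 3 libraries this cannot decide whether the numbers pair the samples, and results with a replicate block are given as an alternative.

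The 8 genes and the gene lists were chosen with earlier results of these data known. Beside the 8 genes, CDKN1A, MDM2 and the paralogues or partners DRAM2, SAT2, DDIT4L, FDX1 and ODC1 are named, with up to 3 genes of each list and line by smallest adjusted p and the 3 genes most like each member. A few genes that this rule names are not reported here. Gene lengths came from GENCODE v29 and promoter windows from RefSeq. Alternatives were RLE scaling, DESeq2 1.42.0, no filter on low counts, a replicate block, 1 shared fit and each library left out.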

Additional observations from a re-analysis of the deposited data

Results flagged for a closer look

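Of the comparisons of the etoposide effect between lines, 19 member results passed the edgeR test of the difference itself, those of DRAM1 being descriptions. All 8 genes had a larger log2 fold change in the pre-B lines than in the 4 other lines, by 3.74 for FDXR, 3.11 for SESN1, 3.01 for DDIT4, 2.69 for DRAM1, 2.66 for SESN2, 2.26 for GLS2, 1.79 for SESN3 and 1.33 for SAT1. In the pre-B lines treatment and pool cannot be told apart. Between NALM6 and 697, the difference of NALM6 minus 697 was -1.91 for SAT1, -0.36 for FDXR and 0.22 for DDIT4. Between RAMOS and JURKAT, the difference of RAMOS minus JURKAT was 3.40 for DRAM1, 1.15 for DDIT4, 0.73 for SESN2 and -0.35 for FDXR. For SESN3, THP1 minus U937 was -1.53. For the myeloid lines minus RAMOS and JURKAT, the difference was -1.88 for DRAM1, 0.86 for SAT1 and 0.56 for GLS2. The DRAM1 differences that involve RAMOS rest on controls with 0 to 3 counts and on JURKAT libraries with 4 to 19, and are descriptions. With 1 library left out, DRAM1 in RAMOS minus JURKAT was 3.06 to 4.47, and in the myeloid lines minus RAMOS and JURKAT -2.42 to -1.66.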

How the results depend on the processing

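Of the 47 tested member and line effects, all 47 kept direction and call under RLE scaling, under DESeq2, without a filter on low counts and with the replicate block, and 46 did in the fit of all libraries, where SESN1 in U937 passed as well (edgeR adjusted p = 0.037). These effects, and the 5 members called in RAMOS below, include DRAM1 in RAMOS. It passed the filter on low counts there only through the etoposide libraries and is a description. The untreated pairs counted below also include DRAM1 in RAMOS and JURKAT controls, which held few counts. With the replicate block the members called were 8, 8, 5, 2, 5 and 4 in NALM6, 697, RAMOS, JURKAT, THP1 and U937, and the calls lost were DDIT4 in NALM6 minus 697 (edgeR adjusted p = 0.193) and untreated SESN2 in NALM6 minus 697 and 697 minus U937 (0.0546 and 0.0722), while untreated FDXR in JURKAT minus U937 passed (0.047), so that 106 untreated pairs were called, against 107. All genes called in THP1 minus U937 were 1025 with the block, against 2215 without it. DDIT4 in NALM6 minus 697 was also lost with no filter (edgeR adjusted p = 0.0734). Under RLE scaling and DESeq2, SAT1 passed in RAMOS minus JURKAT (adjusted p = 0.0474 by edgeR and 0.048 by DESeq2) and DDIT4 in the myeloid lines minus RAMOS and JURKAT (0.0383 and 0.0302). Among untreated pairs, SESN2 lost its call in NALM6 minus 697 (0.178 and 0.23) and 697 minus U937 (0.0511 and 0.0662), and FDXR passed in JURKAT minus U937 (0.0341 and 0.0398).

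Results that turned direction had not passed the test. With the block these were SESN2 in NALM6 minus 697 (-0.0317), SESN3 in RAMOS minus JURKAT (0.00696), SESN1 in the myeloid lines minus RAMOS and JURKAT (-0.0199) and untreated SESN1 in 697 minus RAMOS (0.00195). Under RLE scaling and DESeq2 they were SESN1 in the myeloid lines minus RAMOS and JURKAT (-0.00384 and -0.00381), and untreated FDXR in NALM6 minus 697 (-0.0310 and -0.0312), SESN1 in 697 minus RAMOS (0.0302 and 0.0301) and SESN3 in RAMOS minus JURKAT (-0.0458 and -0.0473). With 1 library left out, the members called in THP1 minus U937 were 1 to 2. Effects that turned ranged over -0.13 to 0.0495 for SESN3 in RAMOS, -0.0453 to 0.10 for SESN1 and -0.18 to 0.11 for SESN3 in JURKAT, -0.18 to 0.0690 for GLS2 in THP1, and -0.0234 to 0.0866 for DRAM1, -0.00775 to 0.11 for FDXR and -0.16 to 0.90 for GLS2 in U937. Differences ranged over -0.0198 to 0.23 for SESN1 and -0.0646 to 0.14 for SESN2 in NALM6 minus 697, -0.16 to 0.13 for SESN3 in RAMOS minus JURKAT, -0.96 to 0.11 for GLS2 in THP1 minus U937, and -0.0445 to 0.0426 for SESN1 and -0.00922 to 0.32 for SESN3 in the myeloid lines minus RAMOS and JURKAT. Untreated levels ranged over -0.0776 to 0.0262 for DDIT4 and -0.0630 to 0.0859 for FDXR in NALM6 minus 697, -0.22 to 0.0319 for SESN1 in NALM6 minus RAMOS, -0.86 to 0.23 for GLS2 in NALM6 minus U937, -0.0624 to 0.0894 for SESN1 in 697 minus RAMOS, -0.17 to 0.11 for SESN3 in RAMOS minus JURKAT, -0.13 to 0.00523 for FDXR in JURKAT minus THP1 and -0.0709 to 0.0862 for SESN1 in JURKAT minus U937. All genes called in JURKAT were 1095 without JURKAT etoposide replicate 1, against 1806, and in THP1 minus U937 they were 1181 without U937 control replicate 1 and 1452 without U937 etoposide replicate 3, against 2215. The cause of these changes was not tested. Groups of 2 libraries in 697 and U937 and the counts of 0 to 3 of DRAM1 in RAMOS controls limit the precision.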
